A study of Mus musculus with 16 samples.

Results

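Genes of haemoglobin and heme biology were followed in the kidney cortex of sedentary and treadmill-trained mice: the adult alpha-globin genes Hba-a1 and Hba-a2, the adult beta-globin genes Hbb-bs and Hbb-bt, the heme synthesis genes Alas2, Alas1 and Fech, the red cell enzyme gene Bpgm, and Epo, which encodes erythropoietin. They are 9 of the 55414 genes of the deposited count table and were picked by symbol, through their Ensembl IDs, with their levels in these groups already known. Their levels and their differences between groups are therefore given as a description. Which of them the fits over all genes called is stated for each comparison, and nothing is read from it. Of the 9 genes, 8 were among the 16126 genes with enough counts to be fitted, and Epo was not. All mice were wild-type C57BL/6J males, an inbred laboratory strain. The study relates treadmill exercise to the pressure diuresis response, in which the kidney excretes more salt and water as blood pressure increases. Mice were either sedentary or were forced to run on a treadmill for 40 minutes at 70% of capacity over 1 day, 1 week or 2 weeks, called the 24 h, 1 wk and 2 wk groups here, and pieces of kidney cortex were frozen when they were killed. Each of the 4 groups had 4 libraries, numbered 1 to 4 in the labels. The labels give neither the age of the mice nor whether each library was a separate animal, so the spread between libraries may in part be technical. They also leave unclear whether the 24 h mice ran within that day or were killed 24 h after a run. A letter in the sample names separates sedentary from exercised libraries and is not explained. Whatever it stands for and exercise cannot be told apart.

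Adult haemoglobin is a tetramer of alpha and beta chains, each holding a heme, and red cell precursors make it from globin mRNA and heme in step. The first step of heme synthesis is run by Alas2 in erythroid cells and by Alas1 in every other cell, where heme goes largely to mitochondrial and cytochrome P450 proteins, and ferrochelatase (Fech) closes the pathway by inserting iron. Erythropoietin is the hormone that keeps red cell precursors alive, and in the adult it is made mainly by interstitial fibroblasts of the kidney cortex when oxygen is low, under control of the transcription factor HIF-2 (Epas1).

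Libraries held 39766260 to 66852397 counts. The 6 proximal tubule markers examined, Lrp2 and Slc34a1 among them, summed to 10700 to 15200 CPM (the count relative to the library's TMM-scaled size) in every library, and the 6 markers of other nephron segments to 2936 to 4454 CPM, as the tissue label says. Between each exercised group and the sedentary group, no gene passed an adjusted p of 0.05 in edgeR's quasi-likelihood test over all 16126 genes. Where a list below is said to have no gene that passed, this test is meant. As the same holds for any list of genes, it is no result about that list. At an unadjusted p under 0.05 there were 1439 genes at 24 h, 975 at 1 wk and 1170 at 2 wk, while DESeq2 called 78, 12 and 31 genes and voom with library quality weights 59, 6 and 7. The unadjusted counts rest in part on single libraries. The 24 h count was 883 without library 3 of that group, the 1 wk count 605 without sedentary library 4 and 1789 without library 4 at 1 wk, and the 2 wk count 731 without sedentary library 3 and 2061 without library 3 at 2 wk. Library 3 at 24 h had the highest Alas1 level, and library 4 at 2 wk the highest globin level.

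The stretches in front of the erythroid members are shown because these genes varied together across libraries, as described further on. Each is the 250 bases before the RefSeq transcript start on GRCm38.p6, written 5′ to 3′ on the gene's own strand. Capitals mark 3 words searched on both strands. The first is GATAA (or its complement TTATC), core letters bound by GATA factors. The second is CACCC (complement GGGTG), bound by KLF1-type factors. The third is CCAAT (complement ATTGG), bound by CCAAT-binding proteins. The windows are chrX:150547167-150547416 (plus strand) for Alas2, chr11:32283422-32283671 (plus strand) for Hba-a1, chr7:103827929-103828178 (minus strand) for Hbb-bs and chr7:103813924-103814173 (minus strand) for Hbb-bt.
Alas2: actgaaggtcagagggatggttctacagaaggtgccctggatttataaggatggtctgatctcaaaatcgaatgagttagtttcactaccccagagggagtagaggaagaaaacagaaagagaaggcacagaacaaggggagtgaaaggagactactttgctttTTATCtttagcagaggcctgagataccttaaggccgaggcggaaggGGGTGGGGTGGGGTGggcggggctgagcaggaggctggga
Hba-a1: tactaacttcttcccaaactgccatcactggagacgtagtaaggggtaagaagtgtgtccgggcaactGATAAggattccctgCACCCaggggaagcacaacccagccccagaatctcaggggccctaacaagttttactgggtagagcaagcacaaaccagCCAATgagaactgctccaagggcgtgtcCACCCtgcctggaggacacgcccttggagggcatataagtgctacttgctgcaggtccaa
Hbb-bs: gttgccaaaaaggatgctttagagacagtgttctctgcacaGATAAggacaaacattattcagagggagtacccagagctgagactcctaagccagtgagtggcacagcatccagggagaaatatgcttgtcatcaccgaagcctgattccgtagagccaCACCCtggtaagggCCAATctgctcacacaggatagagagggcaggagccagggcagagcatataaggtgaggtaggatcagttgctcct
Hbb-bt: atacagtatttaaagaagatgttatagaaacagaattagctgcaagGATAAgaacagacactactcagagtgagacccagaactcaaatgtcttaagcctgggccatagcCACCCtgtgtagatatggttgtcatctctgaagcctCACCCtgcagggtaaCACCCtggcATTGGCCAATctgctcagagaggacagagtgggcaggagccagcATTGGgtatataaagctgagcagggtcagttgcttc
Alas2 had 1 GATAA, 86 to 82 bases before the start, and a run of 3 CACCC words between 40 and 26 bases before it. Hba-a1 had 1 GATAA, 2 CACCC and 1 CCAAT, and Hba-a2, which lies downstream of it on chromosome 11, carried the same stretch: over 297 bases aligned at an offset of 3 bases between the annotated starts, none differed. Hbb-bs had 1 of each word, and Hbb-bt 1 GATAA, 3 CACCC and 3 CCAAT, with the first 2 CCAAT words back to back on opposite strands. The words are short and common. Among 32851 windows of this length in the RefSeq table, GATAA occurred in 22.6%, CACCC in 52.0%, CCAAT in 33.8% and all 3 in 3.5%. For Epo, the window held 1 GATAA and 4 CACCC, for Bpgm 3 CCAAT only, and for both annotated starts of Alas1 a single CACCC. A match is a match of letters and shows no binding. The gene starts of GENCODE M21, which supplied the symbols, differ from the RefSeq starts.

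Beta globin was the most abundant member per length. In sedentary cortex, Hbb-bs stood at 361 ± 85.3 CPM per kilobase of exon (SD, n = 4), Hba-a1 at 96.6 ± 28.8, Hba-a2 at 80.5 ± 25.6 and Hbb-bt at 52.9 ± 12.5. Alas1 followed at 33.5 ± 4.13 CPM per kilobase, Bpgm at 19.3 ± 0.465, Fech at 12.2 ± 0.908, Alas2 at 3.18 ± 0.681 and Epo at 0.0645 ± 0.0331. Hba-a1, Hba-a2 and Hbb-bt overlapped each neighbour in this order across the 4 libraries, and the other neighbours did not. The exon length of Fech, 13.84 kilobases with all annotated transcripts merged, is long for the gene's main transcript and lowers its value. Exon length sets this order, so CPM without division by length is used for each gene against itself from here on.

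All 4 adult globin genes were higher after 2 wk of running. Hbb-bs, the more abundant of the adult beta genes here, read 235, 348, 316 and 209.5 CPM in sedentary libraries 1 to 4 and 443, 369.5, 497 and 932 CPM in the 2 wk libraries. At 24 h it read 339.5, 275, 466 and 260.4 CPM, and at 1 wk 191, 394, 745 and 266 CPM. Each 2 wk library was above each sedentary library, whereas the 24 h and 1 wk libraries overlapped the sedentary ones, and the 1 wk group spanned both the lowest and the second highest Hbb-bs value of the study. The mean was 277 ± 65.5 CPM in sedentary mice, 335 ± 93.6 at 24 h, 399 ± 245 at 1 wk and 560.3 ± 253 at 2 wk (SD, n = 4 each). The fitted log2 difference from sedentary mice at 2 wk was 1.02 ± 0.38 (SE), 2.02-fold, and 0.66 without library 4.

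Hba-a1, which encodes the alpha chain, read 70.8, 110.5, 77.7 and 54.9 CPM in the sedentary libraries and 181, 140.3, 131 and 314 CPM at 2 wk. Its 24 h values were 114, 94.97, 119 and 84.5 CPM, and its 1 wk values 70.2, 107.5, 209.8 and 98.2 CPM. Again the 2 wk libraries all lay above the sedentary ones, library 4 furthest, and the other groups overlapped. The log2 difference at 2 wk was 1.29 ± 0.33 for Hba-a1 and 1.29 ± 0.34 for Hba-a2, both 2.44 to 2.45-fold, and 0.94 to 0.95 without library 4. Hbb-bt, the other adult beta gene, averaged 37.1 ± 8.81 CPM in sedentary mice and 85.9 ± 35.8 CPM at 2 wk, a log2 difference of 1.21 ± 0.38 that was 0.88 without library 4.

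**Figure D1:**
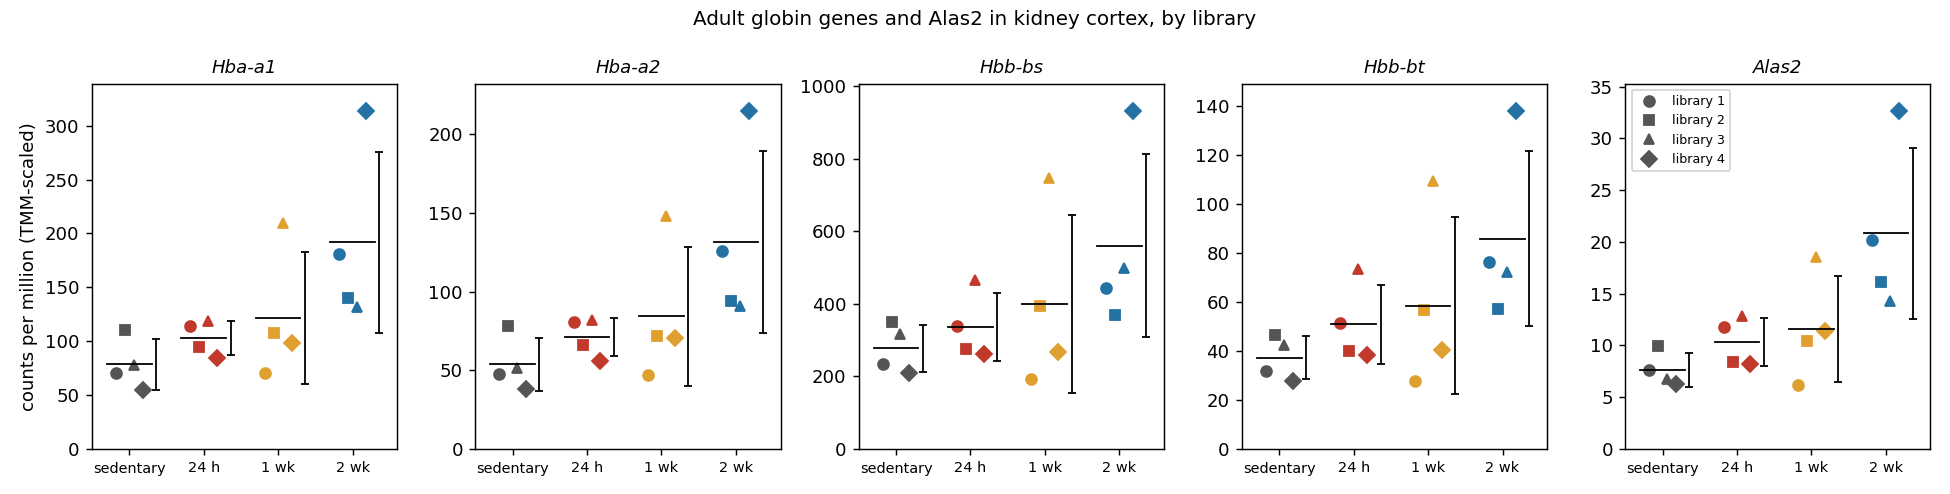
CPM (TMM-scaled) of the 4 adult globin genes and of Alas2 in each library, with group means (horizontal lines) and SD (vertical bars, n = 4), marker shapes giving the library number. All 5 genes have every 2 wk library above every sedentary one, with library 4 at 2 wk and library 3 at 1 wk standing highest in their groups.

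Counting Alas2 with the globins, 5 of the 8 fitted members had no overlap between 2 wk and sedentary libraries, all in the higher direction. Over all genes fitted, 2.29% were higher without overlap in this comparison and 2.61% lower. The members were chosen on these levels, so nothing is read from their share. None of the 8 passed edgeR's adjusted p at 2 wk, where 0% of genes did. DESeq2 called 1 of the 8, Alas2, among 0.208% of its genes, and voom likewise called Alas2 among 0.0434%.

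At 1 wk the globin means were higher than in sedentary mice by 0.53 (Hbb-bs) to 0.65 (Hbb-bt) on the log2 scale, with SE of 0.33 to 0.38. This came largely from library 3, whose summed globin level was 1212 CPM against 336 to 629.5 CPM in the other 3 libraries. Without it, the differences were 0.03 for Hbb-bs, 0.16 for Hbb-bt and 0.23 for both alpha genes. No member had non-overlapping groups at 1 wk, while 1.71% of all genes were higher and 2.51% lower without overlap. EdgeR (0% of genes called), DESeq2 (0.0776%) and voom (0.0372%) called none of the 8 at 1 wk. At 24 h the 4 globin differences were 0.27 to 0.45 with SE of 0.33 to 0.38. Without library 3, Hbb-bs was at 0.07, Hbb-bt at 0.22, Hba-a1 at 0.32 and Hba-a2 at 0.33.

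Globin mRNA was a small part of the cortex libraries. The 4 genes together took 0.0327% of the counts in the lowest sedentary library and 0.162% in library 4 at 2 wk. The summed level was 446 ± 112 CPM in sedentary mice, 560 ± 135 at 24 h, 663 ± 385 at 1 wk and 969 ± 426 at 2 wk. In tissue pieces, more cells that carry an mRNA and more of that mRNA per cell cannot be told apart. Removing the globin counts from the library sizes left the log2 difference of Hbb-bs at 2 wk at 1.02. With globin at no more than 0.162% of the counts, this step could hardly have changed it.

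The pair of alpha genes kept a fixed proportion. The ratio of Hba-a1 to Hba-a2 counts lay between 1.39 and 1.51 in all 16 libraries (coefficient of variation 2.61%), although the level of each gene varied 5.67 to 5.72-fold from the lowest to the highest library. Group means of the ratio were 1.47 ± 0.0411 in sedentary mice, 1.45 ± 0.0413 at 24 h, 1.45 ± 0.0556 at 1 wk and 1.46 ± 0.0242 at 2 wk. Proportions of the beta genes were less even. Hbb-bs over Hbb-bt was 7.39, 7.49, 7.42 and 7.54 in the sedentary libraries, a mean of 7.46 ± 0.0704. It was 6.64 ± 0.237 at 24 h, 6.82 ± 0.176 at 1 wk and 6.48 ± 0.482 at 2 wk. Each of the 12 exercised libraries, at 5.81 to 6.95, was below each sedentary library, whether its globin level was low or high. Library 1 at 1 wk, with the lowest Hbb-bs level of all, had a ratio of 6.95, and library 4 at 2 wk, with the highest, had 6.75.

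**Figure D2:**
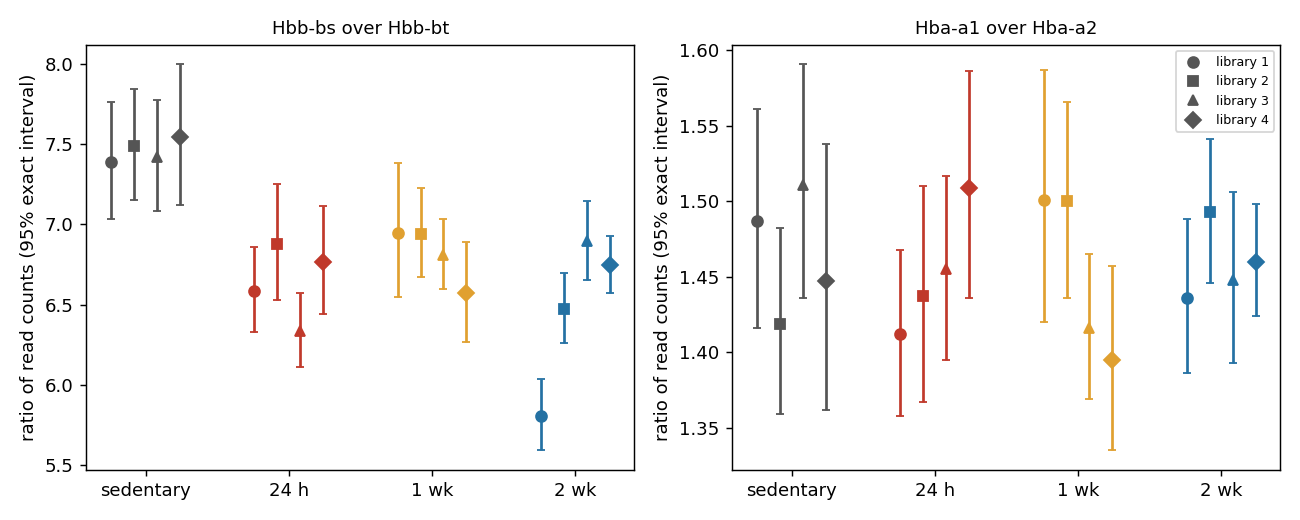
Ratio of read counts of Hbb-bs to Hbb-bt (left) and of Hba-a1 to Hba-a2 (right) in each library, with 95% exact binomial intervals that cover counting error only; neither axis starts at 0. The sedentary Hbb ratios lie at 7.39 to 7.54 and all exercised ones at or below 6.95, while the Hba ratios of the 4 groups overlap.

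The Hbb ratio was looked at after the levels had been seen and is given without a test. The counting interval of a sedentary library, such as 7.03 to 7.76 for library 1, was wider than the spread of the 4 sedentary ratios. The coding sequences of the pairs are nearly identical: 1 base of 441 differs between the Hbb genes and 1 of 426 between the Hba genes (99.77% identity). The sources used here do not say how the authors assigned reads that fit both copies, so the separate values of each pair are uncertain. If such reads were dropped, the sums would lack them too. Alpha over beta counts ranged from 0.361 to 0.592 over the 16 libraries.

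Alas2, the erythroid first enzyme of heme synthesis, read 7.65, 9.94, 6.75 and 6.25 CPM in the sedentary libraries and 20.2, 16.1, 14.3 and 32.7 CPM at 2 wk. At 24 h it read 11.8, 8.40, 12.8 and 8.24 CPM, and at 1 wk 6.17, 10.4, 18.5 and 11.4 CPM. The 2 wk libraries stood above all sedentary and all 24 h libraries, and the 1 wk libraries overlapped the sedentary ones. The mean was 7.65 ± 1.64 CPM in sedentary mice and 20.8 ± 8.28 CPM at 2 wk, a log2 difference of 1.44 ± 0.29 (2.72-fold). Without library 4 at 2 wk it was 1.14, and without library 2 of the sedentary group 1.59. The 24 h and 1 wk differences were 0.43 ± 0.29 and 0.60 ± 0.29, the latter 0.29 without library 3 at 1 wk. Alas2 followed the alpha genes closely, with 51.7 to 68.7 counts per 1000 alpha-globin counts over all libraries (coefficient of variation 10.3%). In the 2 wk group this proportion was 65.2 ± 2.86, against 59.2 ± 7.85 in sedentary mice, and the groups overlapped.

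Across the 16 libraries, log2 CPM of Hbb-bs went with that of the other erythroid members. As the members were chosen with their levels known, these coefficients are a description without p-values. Pearson's r was 0.99 with Hbb-bt (Spearman's rho 0.979), 0.936 with Hba-a1 (rho 0.926), 0.932 with Hba-a2 (rho 0.926) and 0.898 with Alas2 (rho 0.885). Without the 2 libraries farthest from the median, library 3 at 1 wk and library 4 at 2 wk, r was 0.983, 0.856, 0.847 and 0.817. With the group means taken out, r was 0.994, 0.922, 0.912 and 0.877 (rho 0.982, 0.891, 0.856 and 0.747). The relation was thus also seen between libraries of the same group, with the 2 farthest libraries still included. For Bpgm r was 0.433 (rho 0.341), and 0.091 without those 2 libraries. For Fech it was -0.26 (rho -0.232, r -0.311 without the 2).

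Alas1 showed no stable relation with globin. Its r with Hbb-bs was -0.103 over 16 libraries (rho -0.1), 0.343 without the 2 farthest libraries, and -0.402 with group means removed. The library with the most globin at 1 wk, library 3, and the one with the most at 2 wk, library 4, had the lowest Alas1 of their groups, whereas library 3 at 24 h had the highest level of both in its group.

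**Figure D3:**
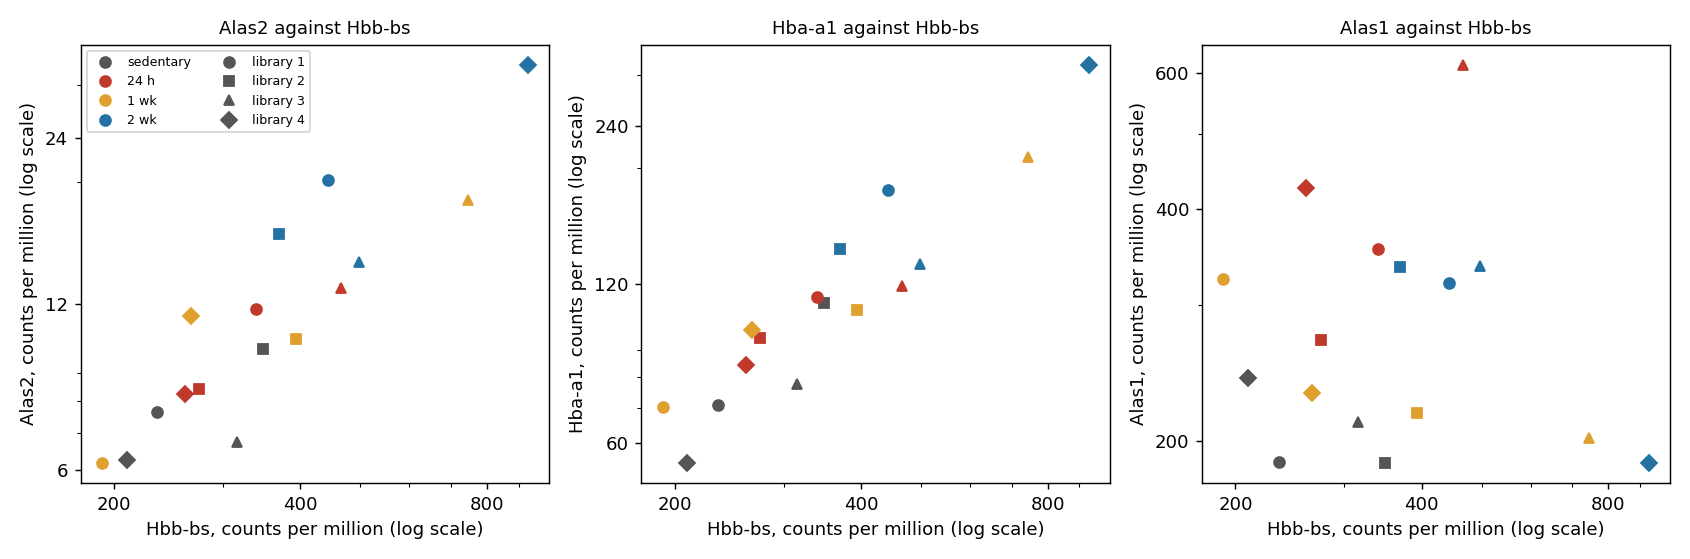
Alas2, Hba-a1 and Alas1 against Hbb-bs, each point a library, both axes in CPM on a log scale, colour giving the group and shape the library number. Alas2 (r = 0.898) and Hba-a1 (r = 0.936) follow Hbb-bs across groups, and Alas1 (r = -0.103) does not.

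By the highest r over the 16 libraries among 12014 genes searched, the genes most like Hbb-bs were Hbb-bt, Hba-a1, Hba-a2 and Alas2, then Ube2l6, an enzyme of ISG15 conjugation (0.825). For Alas2, the order was Hba-a2 (0.975), Hba-a1 (0.974), Hbb-bt (0.931), Hbb-bs (0.898) and the calpain gene Capn5 (0.823). In both lists the other erythroid members stood ahead of every other gene searched. The members were chosen with their levels in these libraries known, so nothing is read from this order. These values describe likeness only, and the libraries share their depth and their groups.

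Erythroid markers beyond the members were examined as well. Of 18 such genes, 17 had a row in the table and 7 were fitted, and none of the 7 passed edgeR's test in any comparison with sedentary mice. Their log2 medians in the 24 h, 1 wk and 2 wk comparisons were -0.21, -0.04 and 0.02, against -0.005, 0.004 and 0.01 over all genes, and 4 of the 7 were positive at 2 wk. Their summed level was 47.55 to 55.8 CPM in sedentary libraries and 51.6 to 59.6 CPM at 2 wk, and 43.3 to 70.8 CPM and 47.0 to 53.9 CPM at 24 h and 1 wk. Most of that was Slc4a1, the anion exchanger of red cells that kidney intercalated cells also make, at 35.4 ± 3.32 CPM in sedentary mice and 39.2 ± 3.26 CPM at 2 wk (log2 difference 0.15 ± 0.14, not past edgeR's threshold). Its r with Hbb-bs was 0.0672 (rho 0.226), 0.324 without the 2 farthest libraries and -0.099 with group means removed. The adjusted permutation p were 0.804 for r and 0.488 for rho, two-sided, over the 11 relations with Hbb-bs computed. These 11 include the members' relations, whose very small p can lower the adjusted p of the others, so nothing is read from them. The 10 unfitted markers with a row had at most 16 counts in any library, among them Rhag with none, Gata1 with at most 4, and Hemgn and Rhd with at most 2. Other genes of the list were detected in every library. The transcription factor genes Klf1 and Tal1 had 78 to 220 and 24 to 89 counts, and the membrane protein gene Epb42 12 to 71. Mean levels in sedentary mice and at 2 wk were 3.122 and 3.165 CPM for Klf1, 1.408 and 0.868 CPM for Tal1, and 1.107 and 0.843 CPM for Epb42.

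Markers of other blood cells differed in direction. The 4 general leukocyte genes, Ptprc (CD45) among them, were all lower at 2 wk with a median log2 difference of -0.49, from 30.7 to 39.1 CPM summed in sedentary mice to 25.8 to 28.8 CPM. The 4 fitted platelet genes were all positive at 2 wk (median 0.58, summed level 9.87 to 11.3 CPM in sedentary mice and 9.66 to 13.4 CPM at 2 wk), and none of either list passed. Ppbp, a platelet chemokine with 7 to 49 reads a library, was 0.331 CPM on average in sedentary mice and 0.675 CPM at 2 wk. Its highest value, 1.04 CPM, was in library 4, where globin was highest. In library 3 at 1 wk, second highest for Hbb-bs, it was 0.46 CPM, and in sedentary library 4 0.427 CPM. The other fitted platelet genes averaged 9.50 and 9.72 CPM (Itga2b), 0.622 and 0.697 CPM (Pf4) and 0.127 and 0.366 CPM (Gp9) in sedentary mice and at 2 wk. The 7 endothelial genes were all lower at 1 and 2 wk (medians -0.38 and -0.29), and the 9 neutrophil genes summed to at most 4.76 CPM in any library. With Hbb-bs, r was -0.127 for Ptprc, 0.491 for the neutrophil gene S100a8 and -0.235 for the endothelial gene Kdr, and their rho -0.103, 0.559 and -0.259. The adjusted permutation p of these were 0.775, 0.119 and 0.525 for r and 0.713, 0.0581 and 0.488 for rho. They were adjusted over the same 11 relations, members included, and can be too low for that reason. Without the 2 farthest libraries r was -0.0221, 0.278 and -0.165. With group means removed, r was 0.256 for Ptprc, 0.53 for S100a8 and -0.0281 for Kdr. The part of blood left in the tissue pieces in the globin levels was not tested.

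Embryonic and non-erythroid globins gave no such signal. Of 9 further globin genes, Hba-x, Hbb-y, Hbb-bh1 and Hbb-bh2 had no count in any library, and Mb, Hbq1a and Hbq1b had at most 5. Cytoglobin (Cygb), a globin of fibroblasts, was 8.46 ± 0.863 CPM in sedentary mice and 11.98 ± 3.39 CPM at 24 h, a log2 difference of 0.50 ± 0.18 (adjusted p 0.415 by edgeR). It was -0.25 at 1 wk and 0.12 at 2 wk. Neuroglobin (Ngb) stayed under 0.55 CPM in all libraries.

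The housekeeping first enzyme of heme synthesis, Alas1, was highest after 24 h. It read 187.8, 187.6, 212 and 241 CPM in the sedentary libraries and 355, 270.4, 616 and 426 CPM at 24 h. At 1 wk it read 325, 218, 202 and 231 CPM, and at 2 wk 320.3, 336, 337 and 187 CPM. Each 24 h library was above each sedentary one, at 1 wk library 1 alone was, and at 2 wk 3 libraries were while library 4 was the lowest of all 16. The mean was 207 ± 25.5 CPM in sedentary mice and 417 ± 147, 244 ± 55.4 and 295 ± 72.3 CPM in the 24 h, 1 wk and 2 wk groups.

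The log2 difference of Alas1 at 24 h was 1.01 ± 0.22 (2.01-fold), 0.76 without library 3 and 1.17 without library 2. It was 0.24 ± 0.22 at 1 wk, and 0.07 without library 1 of that group. At 2 wk it was 0.51 ± 0.22, and 0.68 without library 4. Alas1 was the 1 member of 8 without overlap between 24 h and sedentary libraries, where 3.55% of all genes were higher and 3.66% lower without overlap. EdgeR called 0 of the 8 members at 24 h (0% of genes), while DESeq2 (0.487% of genes) and voom (0.366%) each called Alas1 alone. The proportion of Alas1 to Alas2 counts averaged 28.4 ± 8.55 in sedentary mice, 40.5 ± 10.9 at 24 h, 26.2 ± 18.3 at 1 wk and 16.5 ± 7.85 at 2 wk, with overlap between each group and the sedentary one.

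**Figure D4:**
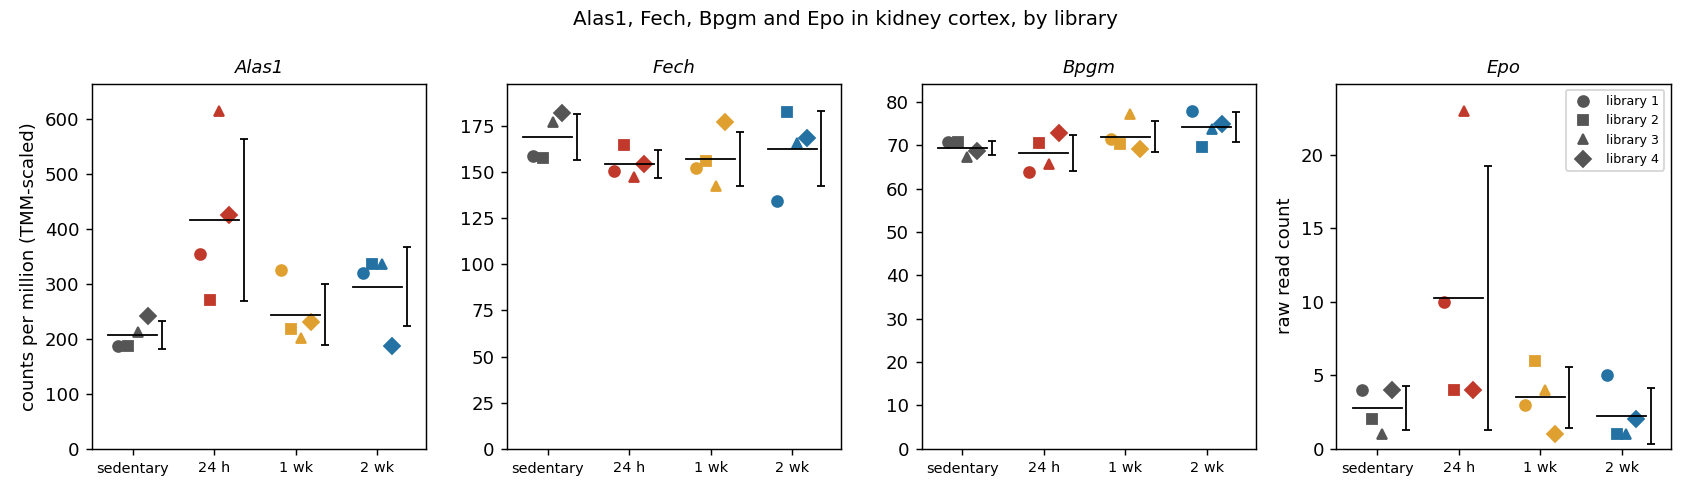
Alas1, Fech and Bpgm in CPM (TMM-scaled) and Epo as raw read counts, by library, with group means (horizontal lines) and SD (vertical bars, n = 4), marker shapes giving the library number. Alas1 is highest at 24 h (270.4 to 616 CPM against 187.6 to 241 CPM in sedentary libraries), Fech and Bpgm stay within narrow ranges, and Epo has 23 reads at most.

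The genes most like Alas1 over the 16 libraries were the splicing factor gene Tra2a (r = 0.887), the RNA polymerase III subunit gene Polr3d (0.872), and the chaperone genes Dnajb2 (0.872), Hsph1 (0.851) and Hspa5 (0.846). Hsph1, a cytosolic HSP110 chaperone, was at 100.3 to 123 CPM in sedentary libraries, and at 135, 149, 310 and 196 CPM at 24 h, with library 3 highest for it as for Alas1. Hspa5 (BiP), the main chaperone of the endoplasmic reticulum, was at 1716 CPM in library 3 and at 817 to 999 CPM in the other 24 h libraries. Library 4 at 2 wk, lowest of that group for Alas1, was lowest there for Hsph1 (96.2 CPM) and Hspa5 (594 CPM) too. Of the 7 genes listed as regulators of Alas1, none passed edgeR's test at 24 h. The orphan receptor gene Esrra was 175 ± 8.23 CPM in sedentary mice and 194 ± 6.71 CPM at 24 h, without overlap (log2 difference 0.15 ± 0.08, adjusted p 0.603), and the xenobiotic receptor gene Nr1i2 was 0.35 ± 0.20 higher (adjusted p 0.635). The median of the 7 was -0.07, with 3 positive, and in none of the 3 comparisons did any of them pass.

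The last enzyme, Fech, kept a narrow range of 134 to 183 CPM over the 16 libraries (coefficient of variation 8.89%). The median over all genes fitted was 15.2%, but it includes genes down to the count filter, which carry more counting error. Fech had 5534 to 12330 counts a library, so the comparison does not show that it was unusually steady. Its mean was 169 ± 12.6 CPM in sedentary mice, 154 ± 7.58 at 24 h, 157 ± 14.6 at 1 wk and 163 ± 20.5 at 2 wk, with overlapping groups and log2 differences of -0.13 ± 0.10, -0.11 ± 0.10 and -0.05 ± 0.10. The 2 wk value was 0.03 without library 1. Counts of Alas1 per count of Fech were 1.22 ± 0.0683 in sedentary mice and 2.74 ± 1.07 at 24 h, where library 3 was at 4.185 and the other 3 at 1.64 to 2.77. Of the enzymes between the first and the last step, 5 were examined: of Alad, Uros, Urod, Cpox and Ppox, none passed in any comparison with sedentary mice. Their log2 differences ran from -0.04 to 0.14 at 24 h, from -0.03 to 0.11 at 1 wk and from -0.18 to 0.02 at 2 wk. Their summed level was 377 to 413 CPM in sedentary libraries and 371 to 437 CPM in the others. Genes most like Fech were Jmjd1c (r = 0.933), Atrx (0.916), Prex2 (0.914), Erlin2 (0.912) and Phkb (0.912).

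Bpgm makes and breaks down 2,3-bisphosphoglycerate, which lowers the oxygen affinity of haemoglobin in red cells, and the kidney expresses it too. It was the steadiest member, at 63.8 to 78.0 CPM in all 16 libraries (coefficient of variation 5.39%). Means were 69.4 ± 1.67 CPM in sedentary mice, 68.2 ± 4.23 at 24 h, 71.9 ± 3.58 at 1 wk and 74.1 ± 3.44 at 2 wk, and the log2 differences were -0.03 ± 0.07, 0.05 ± 0.07 and 0.09 ± 0.07. Groups overlapped throughout. The genes most like it were the uroguanylin gene Guca2b (r = 0.864), Plin5 (0.843), the heme transporter gene Slc48a1 (0.841), Klhdc8a (0.84) and Scrn2 (0.84). Among 8 genes of lower glycolysis, none passed in any comparison with sedentary mice. The muscle-type phosphoglycerate mutase gene Pgam2 was 0.51 ± 0.19 higher at 2 wk (adjusted p 0.562) and 0.45 ± 0.19 at 1 wk (adjusted p 0.766), and Eno1 0.25 ± 0.11 higher at 24 h (adjusted p 0.518 by edgeR).

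Epo was barely detected. Sedentary libraries 1 to 4 had 4, 2, 1 and 4 reads, the 24 h libraries 10, 4, 23 and 4, the 1 wk libraries 3, 6, 4 and 1, and the 2 wk libraries 5, 1, 1 and 2. The sums were 11, 41, 14 and 9 reads among 75 in all, and 33 of the 41 reads at 24 h came from libraries 1 and 3. In CPM, the lowest 24 h library (0.0860) was just above the highest sedentary one (0.0853), a difference of less than 1 read. The mean was 0.0551 ± 0.0283 CPM in sedentary mice and 0.218 ± 0.193, 0.0781 ± 0.0452 and 0.0499 ± 0.0490 CPM in the 24 h, 1 wk and 2 wk groups. The 24 h mean was 3.95 times the sedentary mean with all 4 libraries, and 2.25 times (0.124 ± 0.0548 CPM, n = 3, 18 reads) without library 3. With so few reads Epo was not fitted, and differences between the other groups were not detectable at this depth. In GENCODE M21 the gene spans chr5:137483020-137533242 on the minus strand, through a long transcript that overlaps Gnb2, Gigyf1 and Pop7. Reads shared with those genes may have been dropped or assigned either way, since the sources used here do not give the counting rule.

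Markers of interstitial cells, among which are those that make Epo, were higher at 24 h as a sum, but not evenly. The 7 interstitial fibroblast and pericyte genes summed to 200.6 to 252 CPM in sedentary libraries and to 288, 283, 391.8 and 286 CPM at 24 h, with library 3 highest as for Epo. Of the 7, 6 were positive at 24 h with a median log2 difference of 0.43 (all genes -0.005), and none passed edgeR's test. The largest part of the sum was Nt5e, which proximal tubule cells also express, at 222 CPM in library 3 at 24 h and 89.2 to 129 CPM in sedentary libraries. Pdgfrb, the marker of Epo-making cells in the list, was at 21.9 to 29.6 CPM in sedentary libraries and 24.9 to 32.1 CPM at 24 h. At 1 wk and 2 wk the medians were -0.27 and -0.06. The part of these cells in the Epo reads was not tested.

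The 8 genes of oxygen sensing had median log2 differences of -0.04 at 24 h, -0.01 at 1 wk and 0.06 at 2 wk. Like all other genes, none of them passed edgeR's test. Epas1, the HIF subunit that drives Epo, was 85.5 ± 9.10 CPM in sedentary mice, 71.9 ± 6.75 at 24 h (log2 difference -0.25 ± 0.15, adjusted p 0.641), 68.6 ± 11.7 at 1 wk (-0.32 ± 0.15, adjusted p 0.812) and 88.8 ± 19.2 at 2 wk (0.06 ± 0.15, adjusted p 0.955, edgeR). The prolyl hydroxylase gene Egln3 was -0.28 ± 0.17 at 24 h (adjusted p 0.672). Among 12 HIF target genes, none passed, with medians of 0.02, 0.06 and 0.11. The largest values were at 24 h: adrenomedullin (Adm) was 4.54 ± 0.729 CPM in sedentary mice and 7.25 ± 1.95 CPM (0.68 ± 0.17, adjusted p 0.192 by edgeR and 0.0249 by DESeq2), and the collagen prolyl hydroxylase gene P4ha1 63.3 ± 4.78 and 98.0 ± 30.1 CPM (0.63 ± 0.18, adjusted p 0.285). Vegfa was level at 100.5 ± 4.15 CPM in sedentary mice and 104 to 105 CPM on average in the exercised groups.

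On the receptor side, Epor, the erythropoietin receptor, was low at 1.95 ± 0.153 CPM in sedentary mice and 2.53 ± 0.505 CPM at 24 h (0.38 ± 0.19, adjusted p 0.574 by edgeR). At 1 wk and 2 wk it was 1.97 ± 0.444 and 1.82 ± 0.332 CPM. Of the 9 genes of Epo receptor signaling and Epo regulation, none passed in any comparison with sedentary mice. Stat5a, a transcription factor activated by the receptor, was 13.2 ± 1.01 CPM in sedentary mice and 17.5 ± 2.70 CPM at 1 wk without overlap (0.41 ± 0.12, adjusted p 0.485). Cish, a STAT5 target, ranged from 10.2 to 82.7 CPM at 1 wk and from 10.7 to 30.3 CPM in sedentary mice (1.48 ± 0.59, adjusted p 0.759). Gata2, a factor that represses Epo, was 13.5 ± 0.922 CPM in sedentary mice and 19.6 ± 3.19 CPM at 2 wk without overlap (0.54 ± 0.12, adjusted p 0.251 by edgeR and 0.0204 by DESeq2). Gata3 was 0.45 ± 0.15 higher at 2 wk (adjusted p 0.429).

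Genes that handle heme and iron after synthesis were examined too. None passed edgeR's test against sedentary mice, where 0% of all genes did. Heme oxygenase 1 (Hmox1), which opens the heme ring, was 50.5 ± 3.88 CPM in sedentary mice and 65.3 ± 11.1 CPM at 24 h without overlap (0.37 ± 0.12, adjusted p 0.331 by edgeR), and at -0.02 and -0.09 at 1 wk and 2 wk. Haptoglobin (Hp), which binds free haemoglobin, was under 1 CPM in all sedentary libraries and at 3.15 CPM in library 1 at 2 wk alone (0.81 ± 0.58, adjusted p 0.767). The large scavenger receptor gene Lrp1 was 34.2 ± 3.90 CPM in sedentary mice and 26.7 ± 2.85 CPM at 1 wk without overlap (-0.36 ± 0.14, adjusted p 0.731). Lrp2 (megalin), through which the proximal tubule takes up filtered haemoglobin, was -0.23 ± 0.15, -0.14 ± 0.15 and 0.07 ± 0.15 in the 3 comparisons (adjusted p 0.671, 0.937 and 0.932). The 8 genes of heme breakdown and scavenging, the 14 of heme and iron transport and the 11 of iron uptake, storage and sensing had no member that passed, and their medians lay between -0.07 and 0.01 in every comparison with sedentary mice.

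At 24 h the 2 transport genes of smallest p were the heme exporter gene Flvcr1 (0.42 ± 0.20, adjusted p 0.547) and the mitochondrial glycine carrier gene Slc25a38 (0.27 ± 0.14, adjusted p 0.588). In the iron list they were the ferritin light chain gene Ftl1 (0.28 ± 0.12, adjusted p 0.501) and the iron regulatory protein gene Aco1 (-0.22 ± 0.10, adjusted p 0.515). At 1 wk the iron exporter gene Slc40a1 was -0.38 ± 0.17 (adjusted p 0.796), and at 2 wk transferrin (Trf) was -0.35 ± 0.20 (adjusted p 0.717). The transferrin receptor gene Tfrc was 71.3 ± 9.55 CPM in sedentary mice and 60.8 ± 9.70 CPM at 24 h, with log2 differences of -0.23, -0.01 and -0.07 and an adjusted p of 0.702, 0.998 and 0.947 (edgeR).

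Between exercise durations, 3 erythroid members separated 2 wk from 24 h. Alas2, Hba-a1 and Hba-a2 had all 2 wk libraries above all 24 h libraries, 3 of the 8 fitted members, where 1.7% of all genes were higher and 1.56% lower without overlap. Their log2 differences were 1.01 ± 0.29, 0.90 ± 0.33 and 0.89 ± 0.34, and 0.71, 0.55 and 0.54 without library 4 at 2 wk. Hbb-bs and Hbb-bt overlapped here (0.74 ± 0.38 and 0.75 ± 0.38, and 0.38 and 0.43 without library 4 at 2 wk). EdgeR called none of the 8 members in this comparison, where it called 0.0124% of genes, 2 in all, and DESeq2 (0.237%) and voom (0.0248%) called none of the members either. Alas1 was lower at 1 wk than at 24 h by a log2 difference of -0.77 ± 0.22 and lower at 2 wk than at 24 h by -0.50 ± 0.22, -0.52 and -0.25 without library 3 at 24 h, and both pairs of groups overlapped. Between 1 wk and 24 h no member was free of overlap (1.07% of genes higher, 1.85% lower) and none was called by edgeR or voom (0% of genes each) or DESeq2 (0.318%). The globin differences of 0.20 to 0.25 were between -0.16 and -0.29 without library 3 at 1 wk. From 1 wk to 2 wk the globin genes differed by 0.49 to 0.66, from 0.13 to 0.31 without library 4 at 2 wk and from 0.98 to 1.06 without library 3 at 1 wk, and no member was free of overlap (0.93% of genes higher, 0.657% lower) or called by edgeR (0% of genes), DESeq2 (0.0104%) or voom (0.0062%). The comparisons with sedentary mice share their sedentary libraries, and those between durations share the exercised ones, so they are not independent.

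**Figure D5:**
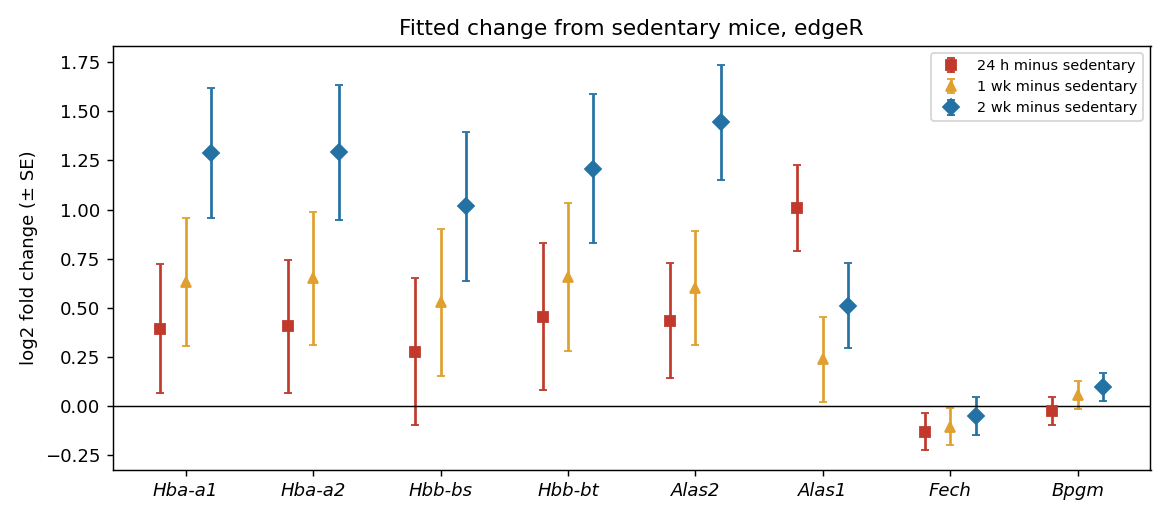
Fitted log2 difference of each exercised group from sedentary mice for the 8 fitted members (points, with SE as bars, edgeR on 4 libraries per group); the line marks no difference. The globins and Alas2 are largest at 2 wk (1.02 to 1.44), Alas1 at 24 h (1.01), and Fech and Bpgm stay between -0.13 and 0.09.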

How the data were processed

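Polyadenylated RNA of kidney cortex was sequenced with a strand-marked kit, per the labels' protocols. The authors deposited unnormalized whole-number counts of reads for each gene. FastQC 0.10.1 and HTSeq 0.10.0 on GRCm38 (mm10) were used, per the submitters' processing notes. The sources used here do not give the annotation release, the strand setting or the aligner. Of the 24 count columns, 8 match no sample and were not used. Symbols came from GENCODE M21 by Ensembl ID (52081 IDs, 99.391% of counts), and promoter sequences from RefSeq (GRCm38.p6), where 8 of the 9 members were matched.

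All 16 libraries entered 1 fit in edgeR 4.0.16 (R 4.3.3): filterByExpr by group, TMM scaling, robust quasi-likelihood F-test, group as the sole term, Benjamini-Hochberg adjustment over 16126 genes, threshold 0.05. CPM are TMM-scaled, and CPM per kilobase divides by the merged exons of GENCODE M21. Values after ± are SD for levels and ratios and SE for log2 differences. DESeq2 1.42.0 and voom with quality weights (limma 3.58.1), other scalings and filters, each library left out, and the replicate number as a block were run beside it. Correlations used log2 CPM (prior count 2) with 100000 permutations. The fit was tested on simulated counts with known changes.

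The members, the gene lists and the tests were chosen with earlier results of these data known. Genes named besides the members are 8 fixed ones, the 2 of smallest p in each pathway list per comparison with sedentary mice, and the 5 most like each member by r. A choice by small p favors groups without overlap, so nothing is read from a lack of overlap in such genes. Of all genes fitted, 3.55% were higher without overlap at 24 h, 1.71% at 1 wk and 2.29% at 2 wk, and 2.51% were lower at 1 wk. Some genes of the lists are not reported here. Other genes, such as list members with counts near 0, Ppbp, Nt5e and further genes of the marker lists, were named after their values were seen. Counting error is small for all members but Epo, and the spread between libraries limits their precision.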

Additional observations from a re-analysis of the deposited data

Results flagged for a closer look

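Among the 56 members and named genes, 224 sets of 4 libraries were examined, and in 8 of them 1 library lay apart from the other 3: its gap to the nearest, divided by the range of the group, exceeded Dixon's 95% critical value for 4 values. Chance flags about 1 in 20 such sets. Among the members this held for Alas1 alone, in library 4 at 2 wk, at 187.2 CPM against 320.3 to 336.9 CPM in the other 3 libraries.

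Of the pathway genes, Esrra was highest in sedentary library 3 (187.6 CPM, others 170.1 to 172.5) and in library 3 at 24 h (204.5 CPM, others 190.5 to 191.6). Epas1 was lowest in library 3 at 2 wk, at 60.38 CPM against 96.03 to 102.4 CPM. Cish was highest in sedentary library 2, at 30.27 CPM against 10.65 to 13.26 CPM. Pgrmc1, a heme-binding membrane protein gene, was highest in sedentary library 3, at 226.8 CPM against 188.5 to 194.3 CPM. Hp was highest in library 1 at 2 wk, at 3.15 CPM against 0.2075 to 0.6827 CPM, and Slc2a1, a glucose transporter gene, in library 4 at 24 h, at 49.8 CPM against 45.64 to 45.97 CPM. The high globin values of library 4 at 2 wk and library 3 at 1 wk did not exceed the critical value.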

How the results depend on the processing

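Counts of genes past the threshold depended on the tool. Against sedentary mice, DESeq2 called 78 genes at 24 h, 12 at 1 wk and 31 at 2 wk, and voom 59, 6 and 7, where edgeR called 0. Between durations DESeq2 called 51 genes for 1 wk against 24 h, 38 for 2 wk against 24 h and 3 for 2 wk against 1 wk, voom 4 and 1 for the latter 2, and edgeR 0, 2 and 0. With total counts in place of TMM edgeR called 2 genes at 24 h and 4 for 2 wk against 24 h; with no filter, 9 at 24 h, 5 at 2 wk and 8 for 2 wk against 24 h; and with at least 1 CPM in 4 libraries, 4 for the latter. Without both library 3 at 24 h and library 4 at 2 wk, an alternative chosen after seeing the data, it called 1 gene at 1 wk and 0 for 2 wk against 24 h. Leaving out each library in turn gave 0 to 5 genes at 24 h, 0 to 1 at 1 wk, 0 to 8 at 2 wk, 0 to 2 for 1 wk against 24 h, 0 to 7 for 2 wk against 24 h and 0 for 2 wk against 1 wk. Over 24 pairs of libraries with the same replicate number, the correlation of deviations ran from -0.239 to 0.375 and was over 0.1 in 8. Pairs with different numbers were not compared, so whether the number pairs the samples was not tested. With the replicate number as a block, 5 genes were called at 2 wk and 11 for 2 wk against 24 h. The cause of these shifts was not tested.

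None of the 1200 alternative log2 differences of the members moved by more than 1 SD of the libraries. Leaving out 1 of 4 libraries can hardly move a group mean that far, so this says little about stability. Hbb-bs at 1 wk, for example, was 0.53 with all libraries and 0.03 without library 3 of that group. Values near 0 changed sign for some members and pathway genes. With 1 library left out, Bpgm at 24 h ran from -0.0543 to 0.00621 and Fech at 2 wk from -0.115 to 0.0285. For 1 wk against 24 h the ranges were -0.145 to 0.377 for Alas2, -0.290 to 0.483 over the 4 globin genes and -0.0369 to 0.0696 for Fech (also below 0 with total counts and with voom), and Fech from 1 wk to 2 wk ran from -0.0123 to 0.134. Epor at 1 wk (0.00547) was -0.0156 with total counts, -0.0115 with the replicate block and -0.0787 with voom, Tfrc at 1 wk 0.0410 and Urod at 2 wk -0.00816 with voom. With 1 library left out, the pathway genes' ranges that crossed 0 were, at 24 h, -0.0619 to 0.241 for Slc4a1, -0.275 to 0.0682 for Ptprc and -0.0782 to 0.00609 for Cpox (0.00868 without both libraries named above); at 1 wk, -0.0208 to 0.117 for Uros, -0.0906 to 0.0226 for Slc4a1, -0.108 to 0.04997 for Hmox1, -0.117 to 0.106 for Epor and -0.0987 to 0.0775 for Tfrc; and at 2 wk, -0.0331 to 0.0465 for Urod, -0.499 to 1.17 for Hp, -0.231 to 0.0197 for Tfrc, -0.0223 to 0.202 for Epas1, -0.0359 to 0.102 for Vegfa and -0.0556 to 0.212 for Lrp2. Correlation with Hbb-bs changed sign for Alas1 (0.343 without the 2 farthest libraries, -0.27 to 0.0954 with 1 left out), Slc4a1 (-0.099 on group deviations, -0.00371 to 0.289 with 1 left out) and Ptprc (0.256 on group deviations). Depth limits Epo, at 1 to 23 reads a library, and 4 libraries a group limit the rest.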
